A study of Mus musculus with 10 samples.

Results

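WT-only REST peaks are the binding regions of the transcription factor REST that were called in the cortex of WT mice and had no counterpart among the regions called in 3xTg mice. Members were chosen by position: a peak of the WT list was kept when it overlapped no peak of the 3xTg list by even 1 base, with chromosome Y left out of both lists. The rule left 502 of 3006 WT peaks, or 16.7% (95% Wilson interval 15.4% to 18.1%), and the other 2504 are called shared WT peaks. Presence in the lists, and with it fold enrichment, q-value, rank, width and the gap to the nearest 3xTg peak, chose the members, so these values are given as a description and were not tested.

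The study profiled REST by chromatin immunoprecipitation and sequencing (ChIP-seq) with an antibody against the C-terminal part of the protein. The tissue was frozen bulk cortex of female mice aged 11 months. In the 3xTg line, a model of Alzheimer's disease, PS1 is changed by a knock-in and the transgenes are APPSwe and tauP301L. Its strain background is part C57BL/6J and part 129Sv/Ev. WT animals have none of the 3 changes. Each genotype had 4 REST ChIP libraries, each made from 4 pooled cortices, and 1 input library. The lists analysed here combine the 4 libraries of a genotype, so they give no spread between replicates. Binding in the separate libraries was neither analysed nor tested between genotypes here, and the study's own test between genotypes was not used. In bulk cortex, binding in fewer cells and weaker binding in each cell cannot be told apart.

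REST is a zinc finger repressor best known for holding neuronal genes silent in cells that are not neurons. It contacts DNA at a long element called RE1, made of a left and a right part, and recruits corepressors that remove histone acetylation and methylation marks of active chromatin. In neurons REST is usually low, and its nuclear level has been linked to ageing, stress resistance and neurodegeneration.

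The WT-only peaks were weak members of the WT list. Fold enrichment, the height of the summit over the local background, had a median of 6.43 among WT-only peaks, with quartiles at 6.12 and 6.81 and extremes of 6.003 and 10.02. Among shared WT peaks the median was 7.60 and the maximum 68.6. The median rank of a WT-only peak was 2259 of 3006, and 452 of 502 (90.04%) lay below the median fold enrichment of the WT list. WT-only peaks made up 38.2% of the 796 WT peaks with a fold enrichment from 6.0 to 6.5. Their share was 21.7% of 507 peaks from 6.5 to 7.0, 18.02% of 333 from 7.0 to 7.5, 7.004% of 257 from 7.5 to 8.0 and 3.09% of 162 from 8.0 to 8.5. Above that level 4 of 158 peaks from 8.5 to 9.0, 0 of 195 from 9.0 to 10 and 1 of 598 at 10 or more were WT-only.

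The lists did not end at the same level. The lowest fold enrichment was 6.003 in the WT list and 8.502 in the 3xTg list, and the lowest −log10 q was 13.30 and 28.96. The study's methods state a single filter on fold enrichment and q-value and name no difference between genotypes, and both lists ended above it, each at its own level. Of the 502 WT-only peaks, 497 (95% interval 97.7% to 99.6%) had a WT fold enrichment below the lowest value that the 3xTg list contains. Among WT peaks at or above that value, 5 of 950 (0.526%, 95% interval 0.225% to 1.23%) were WT-only, against 497 of 2056 (24.2%) below it. Whether a region had enrichment under that level in 3xTg cortex was not analysed here, so absence from the 3xTg list is not a measured loss of binding.

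The 5 peaks at or above the lowest 3xTg value were found in different settings. The highest, at chr5:4052439-4053512 (mm10, as all coordinates here), lay in an intron of Akap9, which encodes a scaffold of the Golgi and centrosome, and had a fold enrichment of 10.02 and rank 583. The gap to the nearest 3xTg peak was 15081 bases, and its summit was in masked repeat sequence. The next, at chr11:106788130-106789437, covered the start sites of Ddx5, an RNA helicase, and Cep95, a centrosomal protein, with a fold enrichment of 8.80. A peak at chr1:8123074-8123470 had 8.70 and was intergenic, 1034351 bases from the nearest annotated start site. A peak at chr11:5098706-5099836 had 8.51 and covered the start sites of Ewsr1, an RNA-binding protein gene, and its neighbour Rhbdd3. The last, at chr13:64497870-64498354, also had 8.51 and lay 365 bases upstream of Fam240b by its summit.

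The 5 peaks that complete the highest 10 had fold enrichments from 8.08 to 8.13. A peak at chr11:48817110-48819029 lay at Trim41 and a peak at chr18:64886951-64887407 at Nedd4l, and both genes encode ubiquitin ligases. A peak at chr4:76292705-76293159 was in an intron of Ptprd, a receptor tyrosine phosphatase of synapses, and a peak at chr9:47754955-47755664 in an intron of Cadm1, a cell adhesion molecule. The tenth, at chr12:117512910-117513453, lay upstream of Rapgef5, an exchange factor for Rap GTPases, 3307 bases from its start site.

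The median −log10 q of WT-only peaks was 15.97, against 22.69 for shared WT peaks. A group of 6 peaks stood apart with values from 88.34 to 122.70, at fold enrichments from 6.003 to 7.14. All 6 lay within 118467 bases on chromosome 6, at chr6:47654756-47773222. The nearest gene was Rn4.5s for 2 of them, 1 with its start site within 5 kb, and Rny3 for the other 4, at 9404 to 41525 bases. The next highest −log10 q among WT-only peaks was 33.71, at the peak in Akap9.

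Widths ran from 211 to 2090 bases with a median of 526.5, against a median of 626 for shared WT peaks. The widest WT-only peak, 2090 bases at chr11:58954482-58956571, covered the histone gene H2aw and the histone pseudogene H2bu1-ps. The next were 1920 bases at Trim41 and 1776 bases at chr3:96239177-96240952, where the histone genes H2ac19 and H3c15 lie. The narrowest were 211 bases at chr17:23451733-23451943, 215 bases at chrX:127584278-127584492 and 219 bases at chr2:96564705-96564923, the last in an intron of Lrrc4c, which encodes a synaptic adhesion protein. The 3 narrowest peaks all had their summit in masked repeat sequence. WT-only peaks at promoters were wider, with a median of 635 bases, than those elsewhere, with 410.5 bases.

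Values at the edge of the rule are as follows. The WT-only peak nearest to a 3xTg peak was 104 bases away from it, whereas no shared WT peak overlapped a 3xTg peak by fewer than 230 bases. The smallest part of a shared WT peak that a 3xTg peak covered was 52.8%, and 2204 of 2504 shared WT peaks (88.0%) lay wholly inside a 3xTg peak. The summit of all 2504 lay inside a 3xTg peak. The 5 shared peaks with the smallest overlaps, of 230, 244, 251, 261 and 262 bases, were short WT peaks covered from end to end. Of these, 4 lay in introns of Spop, Dmd, Hapln1 and Usp31 and 1 was intergenic, 9917 bases from the start of Zfp131, and their WT fold enrichments were 6.05 to 6.62. When sharing required 50% of both peaks, 1225 of 3006 WT peaks counted as WT-only.

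Gaps from WT-only peaks to the nearest 3xTg peak ran from 104 to 2342165 bases. The median gap was 83883 bases, with quartiles at 27208 and 211470. The gap was at most 1 kb for 8 peaks, at most 5 kb for 34 (6.77%), at most 10 kb for 54 (10.8%), at most 100 kb for 274 (54.6%) and at most 1000 kb for 494 (98.4%). The median was 83883 bases for promoter peaks and 83369 bases for the others.

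Among the 5 nearest, the peak at chr6:106504886-106505234 in an intron of Cntn4, a neuronal adhesion gene, was 104 bases from a 3xTg peak of fold enrichment 10.7. The peak at chr11:120231473-120232048, by the start of the noncoding gene 2900052L18Rik and of Bahcc1, was 278 bases from a 3xTg peak of fold enrichment 24.2. The third, at chr6:108658834-108659649, was upstream of Bhlhe40, a transcription factor of the circadian clock, with a gap of 343 bases. An intergenic peak at chr12:113287833-113288192 had a gap of 369 bases, and the peak at the start of Tpt1, a translationally controlled protein, had a gap of 428 bases at chr14:75844730-75845345.

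Among the 5 farthest, the peak at chr17:40934447-40934973 lay 2342165 bases from the nearest 3xTg peak. It covered the shared start region of Cenpq, a centromere protein gene, and Mmut, a mitochondrial enzyme of propionate breakdown. The peak at chrX:127584278-127584492 was 2164690 bases away and intergenic. The peaks at or near the starts of Tom1, an endosomal sorting protein, and Trim45, a ubiquitin ligase, were 1887692 and 1754651 bases away. The fifth, at chr1:122396170-122396692, was intergenic with a gap of 1605707 bases.

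Position relative to genes was not used to choose the members. A promoter peak is one that overlaps the 1 kb on either side of a RefSeq start site. By that definition 284 of 502 WT-only peaks were promoter peaks (56.6%, 95% interval 52.2% to 60.8%), against 869 of 2504 shared WT peaks (34.7%, 32.9% to 36.6%). The odds ratio was 2.45 (95% interval 2.02 to 2.98), with an adjusted p of 7.55e-19 by Fisher's exact test, two-sided, with Benjamini-Hochberg adjustment over 5 comparisons. When sharing needed 50% of both peaks, the shares were 44.8% and 33.9% and the odds ratio was 1.58. Peaks are not replicates of a genotype, so this p and the others below cover the counting of peaks only. The share was 31.6% among the 2588 3xTg-only peaks.

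The higher promoter share was also found when WT-only peaks were compared with shared peaks of like fold enrichment. Below the median fold enrichment of the WT list, 256 of 452 WT-only peaks (56.6%) and 387 of 1050 shared peaks (36.9%) were promoter peaks, with an odds ratio of 2.24. From 6.0 to 6.5 the shares were 53.9% and 35.8%, from 6.5 to 7.0 they were 59.1% and 34.8%, and from 7.0 to 7.5 they were 65.0% and 40.3%.

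Summits of WT-only promoter peaks sat close to the start site. Their median distance was 115 bases, with quartiles at 58.0 and 233, and 82.4% lay within 300 bases. The median for shared WT promoter peaks was 162 bases. The summit was upstream of the nearest start site in 158 of 284 peaks (55.6%). Start sites on both strands lay within 1 kb of 64 of 284 WT-only promoter peaks (22.5%) and of 170 of 869 shared ones (19.6%), and the Wilson intervals of these shares overlapped. A protein-coding start site was present at 270 of the 284.

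The remaining WT-only summits were mostly in introns and between genes. Classed by their summit, 277 peaks were at promoters, 125 in introns (24.9%, against 38.7% of shared WT peaks, not tested), 97 intergenic (19.3%), 2 in the 3' UTRs of Tspyl4 and Cers6 and 1 in a coding exon of Angptl6. The intergenic share was lower than the 27.4% of shared WT peaks (odds ratio 0.633, 95% interval 0.499 to 0.804, adjusted p = 0.000299 by Fisher's exact test). Below the median fold enrichment of the list the shares were 19.5% and 24.5%, and the adjusted p was 0.0952, where it ranged from 4.33e-06 to 1.0 over the 8 alternatives. Summits more than 50 kb from every start site numbered 81 (16.1%).

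Base composition around the summit differed along with position. In the 200 bases around the summit, the median GC content was 55.3% for WT-only peaks (quartiles 46.0% and 63.5%), 48.0% for shared WT peaks and 47.0% for 3xTg-only peaks. The ratio of observed to expected CpG had medians of 0.635, 0.347 and 0.299. Windows 10 kb downstream of the summits had a median GC of 44.0% for both WT-only and shared peaks. A GC content of at least 50% together with a CpG ratio of at least 0.6 was found at 252 of 502 WT-only peaks (50.2%) and at 586 of 2504 shared peaks (23.4%). Among promoter peaks alone the median GC was 61.0% for WT-only and 58.0% for shared peaks, and the CpG ratio 0.806 and 0.728. Among peaks away from promoters the median GC was 46.0% and 44.5%. Over 32851 RefSeq promoters, read from 150 bases before to 50 after the start, the medians were 54.0% and 0.413.

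Composition differed among the highest WT-only promoter peaks, but those printed below do not span its range. Over all 284 WT-only promoter peaks, GC in 200 bases ran from 37.0% to 79.0%, with a lower quartile of 55.5%. Below are the 100 bases around the summit, on the plus strand of mm10 (GRCm38), for the 5 highest promoter peaks, other than Nedd4l, whose window held at most 30 bases of UTR, with each CpG in capitals. They come from chr13:64498108-64498207 at Fam240b, chr11:48818326-48818425 at Trim41, chr9:54068903-54069002 at Tnfaip8l3, chr11:62602910-62603009 at 2410006H16Rik and chr11:69662375-69662474 at Mpdu1. The number of CpGs rose from 1 at Fam240b to 4 at Trim41 and at Tnfaip8l3, 5 at Mpdu1 and 8 at 2410006H16Rik, where GC reached 68.0%.
Fam240b: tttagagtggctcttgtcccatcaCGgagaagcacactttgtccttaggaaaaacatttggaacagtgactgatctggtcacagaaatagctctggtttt
Trim41: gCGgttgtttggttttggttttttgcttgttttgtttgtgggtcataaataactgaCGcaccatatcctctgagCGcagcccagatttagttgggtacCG
Tnfaip8l3: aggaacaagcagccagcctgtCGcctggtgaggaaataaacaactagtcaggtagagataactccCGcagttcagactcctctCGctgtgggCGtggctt
2410006H16Rik: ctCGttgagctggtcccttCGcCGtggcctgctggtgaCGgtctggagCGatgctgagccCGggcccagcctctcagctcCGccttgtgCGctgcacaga
Mpdu1: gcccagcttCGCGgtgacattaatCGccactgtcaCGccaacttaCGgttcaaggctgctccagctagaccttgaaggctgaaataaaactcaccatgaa

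Over the whole WT list, the RE1 element was less frequent at WT-only summits than at shared ones. With at most 5 mismatches over the 20 positions of the consensus, on either strand within 200 bases around the summit, RE1 was found at 17 of 502 WT-only peaks (3.39%, 95% interval 2.12% to 5.36%) and at 154 of 2504 shared WT peaks (6.15%, 5.28% to 7.16%). The odds ratio was 0.535 (95% interval 0.321 to 0.891), with an adjusted p of 0.0245 by Fisher's exact test. Windows of the same length 10 kb downstream held RE1 at 2 of 502 WT-only peaks (0.398%) and at 12 of 2494 shared peaks (0.481%), and the last 200 bases of RefSeq promoter sequences at 213 of 32851 (0.648%). The 3xTg-only peaks held it at 38 of 2588 (1.47%).

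Among WT peaks of low fold enrichment the RE1 shares were closer together than in the whole list. Below the median of the WT list RE1 was found at 17 of 452 WT-only peaks (3.76%) and at 33 of 1050 shared peaks (3.14%), so the order of the shares was reversed, with an odds ratio of 1.20 and an adjusted p of 0.667. Below the lowest 3xTg fold enrichment, a limit added once values were known, the shares were 3.42% and 4.04%. Over 12 alternatives the adjusted p ranged from 0.00588 to 1.0. Among promoter peaks, also added later, RE1 was found at 7 of 284 WT-only and 62 of 869 shared peaks (2.46% and 7.13%, odds ratio 0.329, adjusted p = 0.00588 by Fisher's exact test). Fold enrichment was not matched in this comparison, with medians of 6.43 for WT-only and 7.56 for shared promoter peaks. Away from promoters the shares were 4.59% and 5.63% (adjusted p = 0.723 by Fisher's exact test).

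The left and right parts of RE1 were also searched alone, as AGCACC and GGACAG on both strands, and no difference in share was detected. Either was found in 127 of 502 WT-only windows (25.3%) and 657 of 2504 shared windows (26.2%), with an odds ratio of 0.952 (95% interval 0.764 to 1.19) and an adjusted p of 0.723 by Fisher's exact test. The windows 10 kb downstream of WT-only summits held either at 116 of 502 (23.1%), and the RefSeq promoters at 24.6%. AGCACC was present at 66 WT-only peaks and GGACAG at 83. Masked repeat sequence covered the summit of 39 WT-only peaks (7.77%) and of 209 shared peaks (8.35%), with an odds ratio of 0.925 (95% interval 0.648 to 1.32) and an adjusted p of 0.723.

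Of the 17 WT-only peaks with RE1, 8 had no start site within 5 kb. The best matches, with 2 mismatches, were at chr5:113716620-113717271 in an intron of 1700069L16Rik (fold enrichment 7.01) and at chr7:99648774-99649066, intergenic and 21841 bases upstream of Tpbgl (6.11). Matches with 3 mismatches included peaks at Cemip (chr7:84084917-84085540, 6.65), which takes part in hyaluronan breakdown, and between genes at chr5:116714250-116714628 (6.43) and chr8:110196792-110197072 (6.43). The nearest start sites of the last pair were 122591 bases away, at Srrm4, and 21035 bases away, at Cmtr2. Further peaks of this kind were at Nrsn1 (chr13:25268976-25269879, 6.36), a neuronal membrane protein, and near Nefh (chr11:4949167-4949777, 6.11), the heavy neurofilament subunit. Matches with 4 mismatches included peaks at Hcn3, a pacemaker channel, Hpca, a neuronal calcium sensor, and Syt4, a synaptotagmin, besides Pus3 (7.19) and an intron of Brsk2 (6.44), a kinase of neuronal polarity. Matches with 5 mismatches were in introns of Rabgap1l (6.62) and Nrxn3 (6.05), a presynaptic neurexin, at Zfp963 (6.34) and between genes, 57548 bases from the start of Arap3 (6.02).

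The RE1 match was centred 8.5 bases from the summit at Nefh, 18.5 upstream of Cmtr2, 23.5 in Cemip, 37.5 in 1700069L16Rik, 45.5 upstream of Srrm4, 60.5 upstream of Tpbgl and 61.5 at Nrsn1. Among the peaks with at most 3 mismatches, 4 with the whole match within 100 bases around the summit are printed from the plus strand of mm10 with the match in capitals. They come from chr5:113716765-113716864 in 1700069L16Rik, chr7:84085152-84085251 in Cemip, chr8:110196876-110196975 upstream of Cmtr2 and chr11:4949351-4949450 near Nefh. The match is on the minus strand in 1700069L16Rik and near Nefh. A match is a description of letters and not a shown binding site.
1700069L16Rik: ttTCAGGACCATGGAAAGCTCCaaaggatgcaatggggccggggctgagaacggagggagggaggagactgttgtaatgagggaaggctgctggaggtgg
Cemip: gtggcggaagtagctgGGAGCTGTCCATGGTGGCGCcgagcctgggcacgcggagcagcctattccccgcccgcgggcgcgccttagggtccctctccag
Cmtr2: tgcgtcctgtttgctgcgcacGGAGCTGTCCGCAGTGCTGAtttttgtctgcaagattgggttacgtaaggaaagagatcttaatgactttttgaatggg
Nefh: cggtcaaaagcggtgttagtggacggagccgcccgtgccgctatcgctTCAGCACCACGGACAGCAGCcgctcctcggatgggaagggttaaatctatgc

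Other short motifs were chosen once the data had been seen and were not tested. The GC box GGGCGG was present, on either strand, in 149 of 502 WT-only windows (29.7%) and 438 of 2504 shared windows (17.5%). Among promoter peaks alone it was present in 45.1% of WT-only and 40.1% of shared windows, in 32.2% of RefSeq promoters and in 5.38% of windows 10 kb downstream of WT-only summits. The ETS-type motif CCGGAAG was present in 43 WT-only windows (8.57%) and 104 shared windows (4.15%), and 42 of those 43 were promoter peaks. Among promoter peaks alone it was present in 14.8% of WT-only and 10.4% of shared windows. RefSeq promoters held it at 7.54% and the downstream windows at 0.199%. The AP-1 motif TGANTCA was present in 39 WT-only windows (7.77%) and 281 shared windows (11.2%), against 7.37% of downstream windows and 5.35% of RefSeq promoters. Within promoter peaks the AP-1 shares were 2.46% and 3.45%, and away from promoters 14.7% and 15.4%.

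A gene counted as near a peak when its RefSeq start site was no more than 5 kb away. In total 432 genes were near a WT-only peak, 1.65% of the 26180 annotated genes, and 370 of them were protein-coding. No gene was near more than 1 WT-only peak. Of the 502 peaks, 188 had no such gene (37.5%), 215 had 1, 86 had 2 and 13 had 3 or more. A 3xTg peak lay within 5 kb of 45 of the 432 genes (10.4%), and of 9.84% of all annotated genes. The rule bars a 3xTg peak from overlapping a WT-only peak, so it partly sets this count and the like counts for the gene lists below. A shared WT peak was near 28 of the 432 (6.48%), against 5.16% of all genes. At the 45 genes with peaks of both kinds, the WT-only peak was the closer to the start site at 27, the 3xTg peak at 15, and 3 were equal.

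The 20 highest WT-only promoter peaks had fold enrichments from 7.38 to 8.80. After Ddx5 and Cep95, Ewsr1 and Rhbdd3, Fam240b, Trim41 and Nedd4l came Tnfaip8l3, a phospholipid transfer protein, at 7.91, and Marchf4, a membrane-bound ubiquitin ligase, at 7.90. The noncoding gene 2410006H16Rik, with the small nucleolar RNA genes Snord49a, Snord49b and Snord65, also had 7.90. Mpdu1, needed for protein glycosylation, had 7.75, Esco1, a cohesin acetyltransferase, also 7.75, and Cox16, an assembly factor of cytochrome c oxidase, 7.73. Tpt1 followed at 7.70 and Rptor, the mTORC1 subunit raptor, at 7.69. Zfp62, a zinc finger gene, and Slc25a51, a mitochondrial NAD carrier, both had 7.56. Sgk1, a kinase induced by glucocorticoids, had 7.52, with a 3xTg peak 439 bases away. Ivns1abp had 7.45, C2cd3, a centriole protein, with its neighbour Ppme1, a phosphatase methylesterase, 7.45, and Tcta, with the GTPase gene Rhoa, 7.42. Ift27, a subunit of the transport complex of cilia, had 7.38.

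The gene lists below were not tested and are read against the shares of all genes, which are 1.65% near a WT-only peak, 5.16% near a shared WT peak and 9.84% near a 3xTg peak. Of 259 translation genes, 14 were near a WT-only peak (5.41%), 24 near a shared WT peak (9.27%) and 47 near a 3xTg peak (18.1%). None of the 14 had a 3xTg peak within 5 kb, as was the case for 89.6% of all genes near a WT-only peak. They included Rpl27a (fold enrichment 7.36), Rpl32 (7.15), Rps21 (6.72), Rpl23 (6.62), Rpl22 (6.56), Rpl35a (6.47) and Rplp0 (6.43), which encode proteins of the cytosolic ribosome. Also present were Eef1a1 (6.62) and Eef1g (6.52), which encode elongation factor subunits, and Mrps14 (6.29), a mitochondrial ribosome gene. The start site lay inside the peak for each of these but Eef1a1, whose start site was 128 bases outside.

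Of 172 mitochondrial energy genes, 11 were near a WT-only peak (6.40%), 12 near a shared WT peak (6.98%) and 29 near a 3xTg peak (16.9%). The 11 were led by Slc25a51, Ndufv1 (6.88), a subunit of respiratory complex I, and Atp5a1 (6.81), the alpha subunit of ATP synthase. The others were Slc25a25 (6.47), Ndufaf5 (6.39), Timm22 (6.34), Ndufaf3 (6.25), Atp5o (6.24), Ndufb4 (6.19), Cox5b (6.14) and Ndufs4 (6.05). A 3xTg peak was also within 5 kb of 1 of the 11, Slc25a25, a carrier of ATP and phosphate.

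Of 145 histone genes, 9 were near a WT-only peak (6.21%), in 4 peaks, and 16 near a shared WT peak (11.0%). The peak at chr3:96239177-96240952 served H2ac18, H2ac19 and H3c15, and the peak at chr13:21832665-21834288 served H2ac24, H4bc24 and H4c18 (6.81). H3f3b, which encodes a replication-independent histone, had 6.87, and H2aw and H2bu1-ps shared a peak of 6.81. Of the 9 genes, 3 also had a 3xTg peak within 5 kb, and 32.4% of all histone genes had one.

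Of 474 zinc finger genes, 14 were near a WT-only peak (2.95%), 25 near a shared WT peak (5.27%) and 53 near a 3xTg peak (11.2%). The 10 highest of the 14 were Zfp62, Zfp444 (7.38), Zfp454 (7.17), Zfp692 (7.01), Zfp27 and Zfp383 (6.81, 1 peak), Zfp790 (6.62), Zfp90 (6.47), Zfp706 (6.43) and Zfp963 (6.34). Of 348 ubiquitin and proteasome genes, 9 were near a WT-only peak (2.59%), 20 near a shared WT peak (5.75%) and 40 near a 3xTg peak (11.5%). The 9 were Trim41, Rnf44 (7.34), Trim45 (7.25), Psma6 (7.19), a subunit of the proteasome core, Fbxl13 (7.19), Trim2 and Ube2b (both 6.997), a ubiquitin-conjugating enzyme, Fbxo30 (6.62) and Rnf5 (6.52). The ubiquitin ligase genes Nedd4l and Marchf4, named above, were not part of this list. Of 382 solute carriers, 7 were near a WT-only peak (1.83%), 20 near a shared WT peak (5.24%) and 42 near a 3xTg peak (11.0%). The 7 included the taurine transporter gene Slc6a6 (6.81), Slc43a2 (6.81), an amino acid transporter, Slc35b4 (6.62) and Slc33a1 (6.39), besides Slc25a51 and Slc25a25.

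Of 71 genes of RNA binding and splicing, 2 were near a WT-only peak (2.82%), 9 near a shared WT peak (12.7%) and 17 near a 3xTg peak (23.9%). The 2 were Mbnl2 (6.62), a splicing regulator with a 3xTg peak also within 5 kb, and Srsf1 (6.24), a splicing factor. In a list chosen after the values were seen, 13 of 115 small nucleolar RNA genes (11.3%) were near a WT-only peak, 5 (4.35%) near a shared WT peak and 16 (13.9%) near a 3xTg peak. The 13 belonged to 8 peaks, all of them promoter peaks, including those at Rpl27a, Rpl32, Rpl23 and Rpl23a. Such RNAs guide the chemical modification of ribosomal RNA.

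The neuronal lists had at most 2 genes each near a WT-only peak, counts too small to set them apart from all genes. Of 51 classic neuronal REST targets, 2 were near a WT-only peak (3.92%), among them Nefh, against 19 (37.3%) near a shared WT peak. Of 203 ion channel genes 2 were (0.985%), among them Hcn3 (6.43), and of 120 neurotransmitter receptor genes 0, against 14 (6.90%) and 7 (5.83%) near a shared WT peak. Of 102 genes in the synaptic vesicle list 2 were (1.96%), Syt4 (6.11) and Rab34 (6.03). That list was drawn by symbol and took every symbol that begins with Rab3, so Rab34 is in it by name and not by function. The Rab34 start lay 4729 bases from its peak, which covered the start of the neighbour Rpl23a. Of 204 genes of axon guidance and adhesion 2 were (0.980%), Sema3b (6.14), a secreted semaphorin, and Nlgn2 (6.11), the neuroligin of inhibitory synapses. Of 177 neural transcription factors 2 were (1.13%), Lhx3 (7.29) and Meis1 (6.43), both homeobox genes, and Lhx3 also had a shared peak within 5 kb. None of the 24 genes of REST and its corepressors was near a WT-only peak, while 4 were near a shared WT peak (16.7%).

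Lists tied to Alzheimer's disease and cell stress each had at most 1 such gene. Of 35 amyloid and tau genes, 1 was near a WT-only peak (2.86%), Cd2ap (6.997, chr17:42879067-42879420), an adaptor of endocytosis and the actin skeleton. Of 55 apoptosis and stress genes, 1 was (1.82%), Bcl2l1 (6.26, chr2:152830874-152831837), which encodes the survival protein Bcl-xL. Of 72 genes of autophagy and antioxidant defence, 1 was (1.39%), Sqstm1 (6.04, chr11:50209811-50211296), the autophagy receptor p62. Beside these, 4 (11.4%), 8 (14.5%) and 10 (13.9%) genes of the lists were near a shared WT peak and 8 (22.9%), 12 (21.8%) and 19 (26.4%) near a 3xTg peak. None of 20 immediate early genes, 17 glial and vascular markers and 1482 olfactory and vomeronasal receptors was near a WT-only peak.

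Of 1190 microRNA genes, 9 were near a WT-only peak (0.756%), 31 near a shared WT peak (2.6%) and 56 near a 3xTg peak (4.71%). Mir191 and Mir425 lay within 1 kb of the peak at chr9:108566476-108567870, which covered the start of Ndufaf3. Mir1934 lay in the peak at Mpdu1 and Mir8102 in a peak of 7.19. The others were Mir7668 (6.81), Mir3091 (6.72), Mir7084 (6.60), Mir6937 (6.24) and Mir7653 (6.03).

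WT-only peaks were scattered over the chromosomes. Their share of WT peaks was highest on chromosome 6 with 41 of 182 (22.5%, 95% interval 17.1% to 29.1%) and chromosome 11 with 54 of 254 (21.3%, 16.7% to 26.7%). It was lowest on chromosome X with 2 of 26 (7.69%, 2.14% to 24.1%) and chromosome 19 with 9 of 88 (10.2%, 5.47% to 18.3%). The group of 6 with the highest −log10 q is part of the count on chromosome 6. The median gap from a WT-only peak to the nearest other WT peak was 172137 bases, and that neighbour was itself WT-only in 79 of 502 cases (15.7%), close to the 16.7% of the whole list.

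Few WT-only peaks had another within 100 kb. Such neighbours formed 16 runs with 37 peaks, 14 of them pairs. The run of 6, on chromosome 6, held no 3xTg peak and no shared WT peak between its ends, and a 3xTg peak of fold enrichment 33.0 lay 7398 bases beyond it. A run of 3, none of them at a promoter, spanned 95290 bases at chr15:39735051-39830340. Pairs at ribosomal and translation genes included chr11:78183261-78246364 with Rpl23a and Sdf2, and chr11:69662196-69673066 with Mpdu1 and Eif4a1.

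Some members share their sequence. A stretch of at least 50 identical bases, on either strand, was common to windows around the summits in 4 groups with 17 peaks in all. The first group was the run of 6 on chromosome 6. The second joined 5 narrow peaks on chromosomes 1, 10, 17 and X, among them the narrowest 2 of all WT-only peaks. The third joined 4 peaks on chromosomes 2, 4, 5 and 18 and the fourth 2 peaks on chromosomes 1 and 5. Reads from such copies may be placed at more than 1 of them, and the part that read placement had in their calls was not tested. The tests above counted each of these peaks as a separate peak. With every WT peak that shared such a stretch with another left out, 23 WT-only and 113 shared, a choice made after seeing the data, the odds ratios were 2.61 for promoters (adjusted p = 1.84e-20 by Fisher's exact test), 0.567 for intergenic summits (2.13e-05) and 0.546 for RE1 (0.0309).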

How the data were processed

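The authors deposited 1 peak list per genotype for mm10, made from REST ChIP-seq of 4 pooled-tissue libraries and filtered on fold enrichment and q-value, with blacklisted regions removed. The study's methods name STAR as aligner and MACS as peak caller. The labels of the submitters' processing notes name BWA for replicates 1 and 2 and for the inputs and STAR 2.7.0a for replicates 3 and 4. Column units were those of MACS as deposited by the authors: a score, a fold enrichment ratio at the summit, −log10 p-value and −log10 q-value, and the summit offset. The score and the p-value were not used. Sequencing depth per library was not analysed here.

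Lists of 3010 WT and 5086 3xTg peaks were read, and 4 and 9 peaks on chromosome Y were left out. The members and the gene lists were chosen with earlier results of these data known. Overlap needed 1 base. Annotation was RefSeq curated transcripts for GRCm38.p6. Peaks named were the 10 highest by fold enrichment, the 20 highest at promoters, the 5 nearest to and farthest from a 3xTg peak, the 3 widest and narrowest, those with the fewest RE1 mismatches, the 5 shared peaks with the smallest overlap, and up to 10 genes of each list. Some genes and peaks that this rule takes are not reported here. Intervals are 95% Wilson intervals, or Woolf intervals for odds ratios, and cover counting only. Analysis used Python 3.11.15, pandas 2.3.3, NumPy 2.4.6, SciPy 1.17.1 and pysam 0.24.0. Overlaps and gaps were checked against bedtools 2.31.1 and the RE1 search was tested on simulated data.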

Additional observations from a re-analysis of the deposited data

How the results depend on the processing

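The main counts and shares were recomputed under 60 alternatives, of which 42 kept the direction and the side of the adjusted p threshold of 0.05, or a count within 1.5 times. The number of WT-only peaks, 502, became 1225 when sharing needed 50% of both peaks, 946 against the highest 3006 3xTg peaks, 5 at or above the lowest 3xTg fold enrichment and 1 above a fold enrichment of 10. With those 5 peaks alone, the odds ratios were 3.09 for promoters, 0.554 for intergenic summits, 0 for RE1 and 2.63 for masked summits, none past the threshold. Below the median fold enrichment, the odds ratios were 0.746 for intergenic summits, 1.20 for RE1 and 1.15 for the RE1 parts. Below the lowest 3xTg fold enrichment, chosen after seeing the data, they were 0.841 for RE1 and 1.09 for the RE1 parts. With peaks that share 50 bases left out, also chosen after seeing the data, the odds ratio of the RE1 parts was 1.0. The RE1 odds ratio was also no longer past the threshold at 50% of both peaks (0.957), with 6 mismatches (0.673), over the whole peak (0.646) and away from promoters (0.806, chosen after seeing the data). The cause of these changes was not tested. The promoter odds ratio was 1.58 to 2.61 under the other 10 alternatives, including GENCODE start sites, chosen after seeing the data. No paired analysis was possible because the lists analysed here pool the 4 replicates, so no replicate was left out; the separate libraries were not analysed.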
